A study of Mus musculus with 10 samples.

Results

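Chromatin modifiers and remodellers are the enzymes and partner proteins that write, remove and read marks on histones and DNA, or move nucleosomes. Members were taken from the count table by gene symbol. They were the symbols starting with *Kmt2*, *Kdm*, *Setd*, *Smarc*, *Ino80*, *Arid*, *Dnmt*, *Brd*, *Baz*, *Nsd*, *Ehmt* or *Phf*, those made of *Chd*, *Hdac*, *Kat* or *Tet* and a digit, and *Crebbp*, *Ep300*, *Ep400*, *Ezh1*, *Ezh2* and *Suz12*. This gave 145 of the 24453 genes in the table, of which 142 are protein-coding in GENCODE. The symbols also bring in *Nsdhl*, an enzyme of cholesterol synthesis, the opposite-strand genes *Chd3os*, *Dnmt3aos* and *Ino80dos*, and the pseudogene *Smarca5-ps*.

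The study compared both types of intratelencephalic projection neuron (IT-PN) found in layer 5 of the mouse primary motor cortex (M1). The mice were hemizygous males of the (Zfp312-EGFP)CO61GsatMmnc line on a Swiss Webster background, in which GFP marks cells that use the regulatory elements of *Fezf2*. All animals received the retrograde tracer CTB647 (cholera toxin subunit B with a far-red dye) in the left M1 at postnatal day 23 to 25, and cells were sorted from layer 5 of the right M1 at postnatal day 28 to 32. *Fezf2+ve* IT-PNs carried GFP and tracer, and *Fezf2−ve* IT-PNs carried tracer only. Mean sort yields in the sample records were 11280 *Fezf2+ve* and 2688 *Fezf2−ve* cells, and a higher mean for the *Fezf2−ve* cells stands in the study's text. Each of 5 animals gave 1 library of each type, so the 10 libraries are bulk pools of cells paired by animal. ERCC spike-in RNA was added, and the RNA was amplified by PCR and in vitro transcription before the reads were counted on genes. In the order of animals 1 to 5, which is kept for all lists of reads, 118134, 107643, 118069, 151591 and 203379 reads were counted on genes for *Fezf2+ve* IT-PNs and 167916, 89138, 168711, 211368 and 217738 for *Fezf2−ve* IT-PNs. At these depths 3 reads, taken as the detection floor, correspond to 13.8 to 33.7 CPM, which are reads scaled to a common library total. Floors and intervals cover counting error only, since PCR copies are not independent molecules and the methods name no molecular identifiers.

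Methyltransferases and demethylases set methyl marks on histone lysines, while acetyltransferases and deacetylases set acetyl marks that open or close chromatin. Remodellers of the SWI/SNF (BAF), CHD, ISWI and INO80 families use ATP to slide, evict or exchange nucleosomes, DNMT and TET enzymes write and oxidize methylcytosine, and proteins with PHD fingers or bromodomains read these marks. In cortical neurons these proteins act in fate choice, dendrite growth and activity-dependent transcription, and mutations in many of their genes cause neurodevelopmental disorders.

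Promoter windows from RefSeq (GRCm38.p6, from 250 bases before to 50 bases after the start of transcription) were matched by symbol for 113 of the 145 members. The number of CG dinucleotides in these 300 bases had a median of 25 over the members (quartiles 17 and 33, range 0 to 65), of 21 over the 5746 matched windows of tested genes and of 13 over all 17790 windows. At least 10 CG were found in 96 members (85.0%), in 79.2% of the tested genes and in 57.4% of all genes. Most members therefore had CG-rich starts, as did most genes that reached the test. The windows of *Crebbp*, *Kdm2b*, *Setd2*, *Arid3b* and *Baz2b* are shown because these members had the smallest unadjusted p-values among those with lower values in *Fezf2+ve* IT-PNs. That of *Hdac9* is shown, after its values were seen, because it holds no CG while the reads of this gene were the most evenly spread over libraries among the tested members. Capitals mark each CG, and the sequences run 5′ to 3′ on the strand of the gene.
Crebbp: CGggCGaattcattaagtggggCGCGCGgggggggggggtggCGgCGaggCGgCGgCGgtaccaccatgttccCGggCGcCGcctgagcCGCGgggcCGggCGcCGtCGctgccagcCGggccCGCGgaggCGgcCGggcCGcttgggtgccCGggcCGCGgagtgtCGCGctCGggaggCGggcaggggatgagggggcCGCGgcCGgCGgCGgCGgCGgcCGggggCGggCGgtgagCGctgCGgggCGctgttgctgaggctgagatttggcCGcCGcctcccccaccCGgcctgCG
Kdm2b: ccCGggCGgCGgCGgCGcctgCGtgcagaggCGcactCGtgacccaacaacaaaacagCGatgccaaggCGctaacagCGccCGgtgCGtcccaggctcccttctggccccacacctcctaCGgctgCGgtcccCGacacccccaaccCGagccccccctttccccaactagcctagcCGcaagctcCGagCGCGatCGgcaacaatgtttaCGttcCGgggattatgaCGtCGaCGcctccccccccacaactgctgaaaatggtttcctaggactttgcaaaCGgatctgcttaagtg
Setd2: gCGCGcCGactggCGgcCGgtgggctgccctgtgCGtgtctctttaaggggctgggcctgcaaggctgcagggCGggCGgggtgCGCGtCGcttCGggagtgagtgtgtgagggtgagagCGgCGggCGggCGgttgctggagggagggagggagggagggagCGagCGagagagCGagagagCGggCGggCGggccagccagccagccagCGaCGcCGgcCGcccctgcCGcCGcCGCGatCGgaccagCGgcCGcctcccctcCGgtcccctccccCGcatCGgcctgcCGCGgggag
Arid3b: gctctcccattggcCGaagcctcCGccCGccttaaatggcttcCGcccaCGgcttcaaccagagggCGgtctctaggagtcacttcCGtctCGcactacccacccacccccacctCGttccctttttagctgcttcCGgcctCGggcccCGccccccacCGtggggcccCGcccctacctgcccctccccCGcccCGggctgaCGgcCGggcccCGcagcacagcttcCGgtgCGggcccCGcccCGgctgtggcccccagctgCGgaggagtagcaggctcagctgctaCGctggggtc
Baz2b: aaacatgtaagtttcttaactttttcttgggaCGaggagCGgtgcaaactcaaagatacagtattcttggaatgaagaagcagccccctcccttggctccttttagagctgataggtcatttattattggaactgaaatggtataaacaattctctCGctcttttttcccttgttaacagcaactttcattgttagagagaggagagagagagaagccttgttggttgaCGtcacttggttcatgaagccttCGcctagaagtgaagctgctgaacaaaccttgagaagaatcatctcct
Hdac9: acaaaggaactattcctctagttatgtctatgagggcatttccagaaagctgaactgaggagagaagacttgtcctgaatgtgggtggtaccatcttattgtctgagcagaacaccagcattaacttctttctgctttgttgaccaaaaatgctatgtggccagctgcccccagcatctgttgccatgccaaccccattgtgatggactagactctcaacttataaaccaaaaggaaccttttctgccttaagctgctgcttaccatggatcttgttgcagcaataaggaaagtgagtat
The window of *Crebbp* lies at chr16:4213355-4213654 on the minus strand and holds 49 CG, that of *Kdm2b* at chr5:122989050-122989349 on the minus strand holds 28, and that of *Setd2* at chr9:110532347-110532646 on the plus strand holds 38. The window of *Arid3b* lies at chr9:57836730-57837029 on the minus strand and holds 25. The window of *Baz2b* lies at chr2:60125691-60125990 on the minus strand, inside the longer span that GENCODE gives this gene, and holds 5 CG. The window of *Hdac9* lies at chr12:34917046-34917345 on the minus strand. RefSeq lists 4 windows for *Kdm2b* and 2 each for *Arid3b* and *Hdac9*, of which the one at the most upstream start is shown. Of the 17 members with fewer than 10 CG, 13 had a read in any library and 8 were tested, against 59 tested of the 96 members with at least 10 CG. These 17 were *Arid5b*, *Baz2b*, *Dnmt1*, *Dnmt3aos*, *Dnmt3l*, *Hdac7*, *Hdac8*, *Hdac9*, *Kdm4c*, *Phf11a*, *Phf11b*, *Phf11c*, *Phf11d*, *Phf24*, *Setd5*, *Smarca1* and *Smarcd2*.

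Short motifs were searched on both strands of the same windows. The GC box GGGCGG occurred in 78 members (69.0%), in 62.2% of the tested genes and in 46.7% of all genes. Counted without overlapping matches, there were 7 boxes in *Arid3b* and 4 in *Setd2*. The window of *Setd2* holds further matches that overlap these, so the 2 counts do not rank the windows. TATAAA occurred in 6 members (5.31%), in 7.10% of the tested genes and in 12.8% of all genes, and in *Hdac9* it began 29 bases before the start. The cyclic AMP response element TGACGTCA, to which CREB binds, was found in 2 members, *Phf8* and *Baz2b* (1.77%, against 3.06% of tested and 2.41% of all genes), and began 24 bases before the start of *Baz2b*. The ETS motif CCGGAAGT, the YY1 motif AAGATGGC and the NRF1 motif GCGCATGC were each found in 5 members (4.42%). Their shares were 7.12, 4.42 and 5.29% of the tested genes and 5.35, 3.28 and 3.66% of all genes. A GC box holds a CG, so its share moves with the CG content, and a match is a description of letters and not a binding site.

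**Figure D1:**
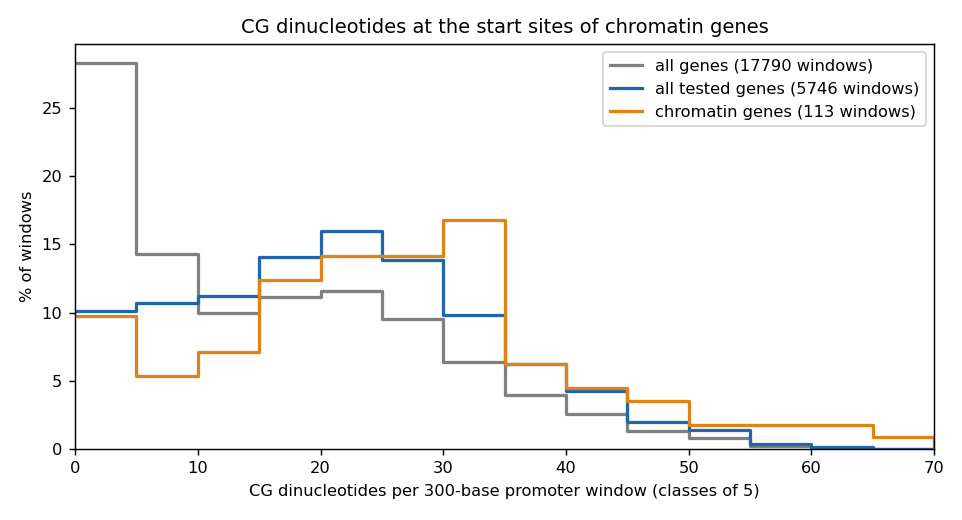
CG dinucleotides per 300-base promoter window (x axis) against the percent of windows (y axis) for 113 members, 5746 tested genes and all 17790 genes. The members have a median of 25 CG, against 21 and 13, and 17 members lie below 10.

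Of the 145 members, 132 (91.0%) had a read in 1 or more libraries and 17 (11.7%) had reads in all 10 libraries, compared with 59.3 and 3.74% of all genes. The 13 members without a read were *Arid3c*, *Arid5a*, *Brdt*, *Dnmt3aos*, *Dnmt3b*, *Hdac7*, *Hdac11*, *Kat5*, *Phf1*, *Phf11b*, *Phf23*, *Setd6* and *Smarcd2*. Members were thus found in more libraries than genes in general, but sparsely, with a median of 13 reads over the 10 libraries (2 over all genes) and of 4 libraries with reads (1 over all genes). Members also had longer spans, with a median of 47.2 kb against 15.6 kb. Across genes, the Spearman correlation of span with total reads was 0.690 over the 145 members and 0.593 over the 24033 genes with a position. These points share their libraries and depth and are not independent. Among the 49 members with spans of 2.18 to 31.2 kb, 39 had a read, 18 were tested and the median was 2 reads. The 48 members from 31.2 to 73.5 kb included 45 with a read and 29 tested, with a median of 10 reads, whereas all 48 members from 75.1 to 870 kb had a read, 45 were tested and the median was 61.5 reads. In total 92 members (63.4%) had at least 10 CPM in at least 2 libraries and entered the test, against 30.3% of all genes.

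In the order of animals, 61, 78, 55, 48 and 74 members had a read in *Fezf2+ve* and 87, 72, 91, 70 and 71 in *Fezf2−ve* libraries. The ranges overlapped, with means of 63.2 in *Fezf2+ve* and 78.2 in *Fezf2−ve* libraries and the *Fezf2+ve* library higher in 2 of 5 animals (exact paired permutation test, two-sided, p = 0.25, where 5 animals allow no p below 0.062). As a share of the genes detected in the library, members made up 0.879 to 1.26% in *Fezf2+ve* and 1.15 to 1.33% in *Fezf2−ve* libraries. Members received 8.41, 0.905, 4.73, 0.385 and 0.947% of the gene reads in *Fezf2+ve* libraries and 0.922, 0.826, 2.56, 0.430 and 0.821% in *Fezf2−ve* libraries. *Fezf2+ve* libraries 1 and 3 and *Fezf2−ve* library 3 stood above the other 7, and the groups overlapped. In 4 of 5 animals the *Fezf2+ve* library had the higher share, by 1.96 percentage points on average (exact paired permutation test, two-sided, p = 0.125). Because the libraries are pools, fewer cells of a type and less RNA per cell cannot be told apart in any of these values. The difference depended on single genes and libraries. Without the most-read member of each library it was -0.233 points, with the *Fezf2+ve* library higher in 1 of 5 animals, and without the 10 most-read genes of each library it was -0.469 points (exact permutation test, p = 0.188 and 0.312). Without animal 1 the difference was 0.583 points.

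A different member led in each library. In the *Fezf2+ve* libraries these were *Ino80d* with 9653 reads in library 1, *Arid4b* with 569 in library 2, *Phf14* with 4340 in library 3, *Chd7* with 400 in library 4 and *Phf21a* with 844 in library 5. In the *Fezf2−ve* libraries they were *Kdm2a* with 443 reads in library 1, *Baz2b* with 227 in library 2, *Arid1a* with 1355 in library 3, *Kdm2b* with 505 in library 4 and *Crebbp* with 1016 in library 5. *Ino80d* alone made up 97.2% of the member reads and 8.17% of all gene reads in *Fezf2+ve* library 1, and *Phf14* 77.7 and 3.68% in *Fezf2+ve* library 3. The leading members of the 10 libraries were therefore 10 different genes from 4 of the role groups described here.

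**Figure D2:**
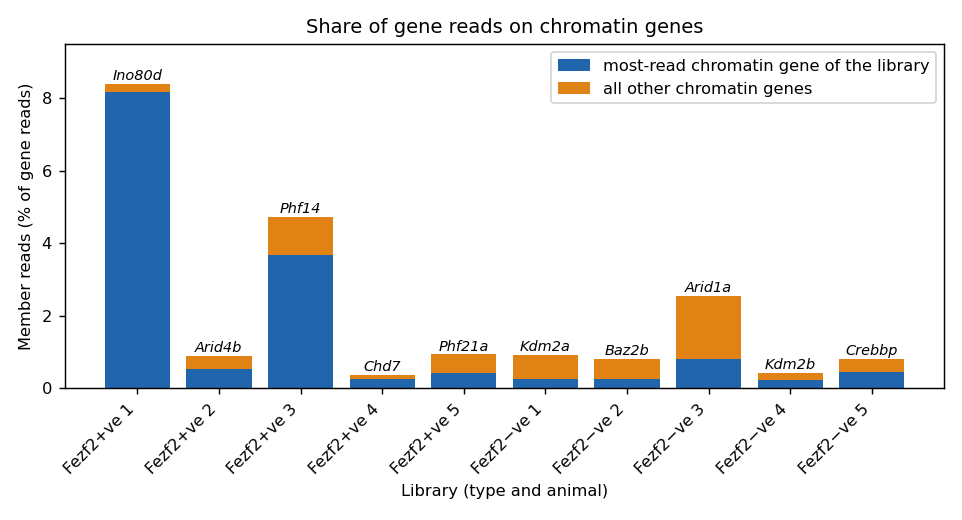
Percent of gene reads on the 145 members (bar height, linear y axis from 0) in each of the 10 libraries, with the part of the most-read member, named above the bar, in blue and that of all other members in orange. *Fezf2+ve* libraries 1 and 3 reach 8.41 and 4.73%, mostly from *Ino80d* and *Phf14*.

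The concentration of a gene's reads in 1 library was measured as the share of its CPM, summed over the 10 libraries, that came from its highest library. This share exceeded 50% in 49 of the 92 tested members (53.3%), against 45.4% of all tested genes, and exceeded 90% in 11 members (11.96% against 7.37%). The share grew with the number of reads in members and tested genes but not in the ERCC transcripts, which share the libraries, were added as a common mix and were scaled to the ERCC reads of each library. This number includes the reads of the highest library, so 1 very high library also moves a gene to a class with more reads. Part of the growth in genes is thus built into the classes. At 10 to 30 reads the median share was 38.03% in 33 members, 42.9% in 2866 tested genes and 37.1% in 11 ERCC transcripts. At 300 to 1000 reads it was 91.6% in 11 members, 85.5% in 435 tested genes and 20.3% in 9 ERCC transcripts, and from 1000 reads on it was 92.4% in 5 members, 87.1% in 332 tested genes and 15.8% in 16 ERCC transcripts. The highest library was *Fezf2−ve* library 3 in 18 members (19.6%, against 12.3% of all tested genes), and in 14 of these it held over 50%. The same library held 529 of the 588 reads of *Camk2a*, a kinase of excitatory neurons, and 646 of the 728 reads of *Rorb*, a transcription factor. Whether the cell content of this library had a part in the members' values was not tested. The second-highest library came from the same animal in 9 members (9.78%) and in 11.97% of all tested genes.

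**Figure D3:**
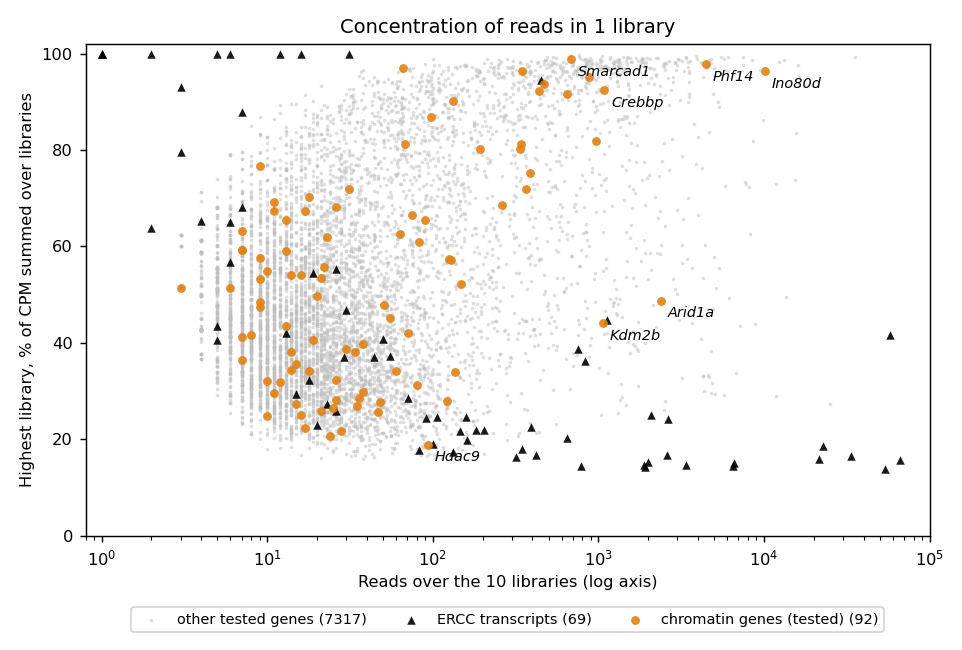
Percent of summed CPM in the highest library (y axis) against total reads over the 10 libraries (log x axis) for 92 tested members, 7317 other tested genes and 69 ERCC transcripts. The 5 members with over 1000 reads have a median of 92.4%, with *Arid1a* at 48.7% and *Kdm2b* at 44.0%, while ERCC transcripts with as many reads have a median of 15.8%. Total reads include those of the highest library.

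A log2 fold change above 0 stands for a higher value in *Fezf2+ve* libraries, with the animal as a block. With edgeR's quasi-likelihood test, 0 of the 92 tested members had a Benjamini-Hochberg adjusted p at or below 0.1, as for all 7409 tested genes (0%), and the smallest adjusted p of a member was 0.998. At an unadjusted p under 0.05, edgeR gave 6 members (6.52%), against 3.89% of all tested genes. *Crebbp*, *Setd2*, *Arid3b*, *Baz2b* and *Kdm2b* had lower values in *Fezf2+ve* libraries, and *Chd3* had a higher value. This count was 4, 3, 1, 0 and 2 when animals 1 to 5 were left out in turn. These were 4.88, 3.90, 1.27, 0 and 2.33% of the members then tested, beside 3.78, 3.88, 2.83, 3.80 and 3.94% of all genes then tested. Without the block, edgeR called 4 members at the adjusted threshold, *Arid3b*, *Crebbp*, *Kdm2b* and *Phf14* (4.35%, against 3.77% of all tested genes). DESeq2 with the block called *Crebbp* and *Kdm2b* (2.17%, against 1.32%). DESeq2 shares here and below are of all genes in the fit. Some of these had no adjusted p and could not be called, such as *Hdac4*, *Hdac8*, *Phf20* and *Tet3*. The TMM-normalized CPM of the types did not overlap for *Arid3b* and *Chd2*, both lower in *Fezf2+ve* libraries (2.17%, against 1.46% of all tested genes). By library size alone the ranges of *Chd2* overlapped, with 9.29 CPM in *Fezf2+ve* library 2 against 4.73 CPM in *Fezf2−ve* library 4 from 1 read each. Of the 92 tested members, 34 had a fold change above 0 and 58 below, with a median of -0.52 (quartiles -1.77 and 0.81, range -6.55 to 4.11), and 45.7% of all tested genes lay above 0 with a median of -0.16. With the 6 members that had no read in a type set to their bound, the median was -0.49, and without animal 3 it was -0.30. The median standard error of a member's fold change was 1.75. Within animals 1 to 5, the median difference in level over the members was -0.28, 0, -0.44, -0.37 and 0.

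**Figure D4:**
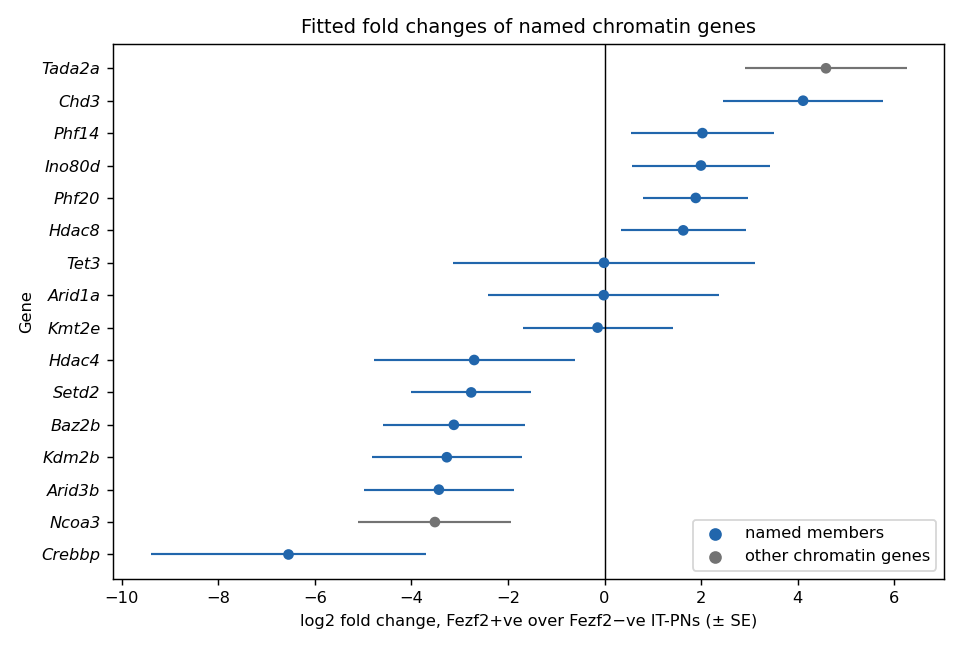
Log2 fold change of *Fezf2+ve* over *Fezf2−ve* (x axis, bars are standard errors) for the named members and for the named other chromatin genes with reads in both types, in order of size. *Crebbp* is lowest at -6.55, *Tada2a* and *Chd3* are highest at 4.59 and 4.11, and none passed the adjusted threshold.

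Markers of microglia and blood moved with the types. All 15 microglial markers were tested, all 15 were lower in *Fezf2+ve* libraries, and 11 had an unadjusted p under 0.05 in edgeR. Their summed reads were 32, 21, 12, 12 and 26 in *Fezf2+ve* and 1179, 488, 1239, 394 and 880 in *Fezf2−ve* libraries, with *Ctss* the most read at 817. Every *Fezf2−ve* library lay above every *Fezf2+ve* library, with 79.2 to 271 CPM against 1864 to 7344 CPM (exact paired permutation test, two-sided, p = 0.062, the smallest possible). The 4 globin genes had 103, 11, 2, 0 and 0 against 758, 294, 46, 60 and 2 reads, with the *Fezf2+ve* library lower in 5 of 5 animals, and *Hba-a1* and *Hba-a2* had identical counts. The animals were perfused with saline, and the sort took cells with tracer after gating out debris, doublets and dead cells. The study's text states that neurons can express such microglial genes too, at lower levels. Microglia and blood cells also express chromatin genes, and the part of these cells in the members' lower values in *Fezf2+ve* libraries was not tested. Neuronal markers were sparse. Excitatory markers summed to 71, 47, 31, 4 and 18 against 17, 10, 561, 11 and 9 reads, with *Tbr1* at 0, and layer 5 markers to 11, 24, 8, 49 and 13 against 18, 6, 651, 6 and 32 reads, with *Crym* at 0 and *Fezf2* at 1 read. Of the 561 and 651 reads in *Fezf2−ve* library 3, 529 were on *Camk2a* and 646 on *Rorb*, so the other layer 5 markers had 5 reads there. Interneuron markers reached 11 reads in all, with *Slc32a1*, *Pvalb* and *Vip* at 0. Astrocyte markers summed to 76 to 819 against 9 to 803 reads (*Slc1a2* the most read at 1817, *Gfap* at 0), markers of oligodendrocyte precursors to 11 to 283 against 22 to 243 (*Pdgfra*, 740) and endothelial markers to 0 to 10 against 2 to 13 (*Flt1*, 26). For these lists the ranges of the types overlapped.

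The symbols grouped as lysine methyltransferases had 23 members, of which 22 had a read and 17 were tested, *Nsdhl* included, and 22, 21 and 16 without it. They received 45, 144, 26, 78 and 344 reads in *Fezf2+ve* and 72, 232, 994, 48 and 133 in *Fezf2−ve* libraries, and the ranges overlapped. *Setd2*, which trimethylates lysine 36 of histone H3 along transcribed genes (chr9:110532597-110618633, plus strand), had 1, 1, 4, 1 and 4 reads in *Fezf2+ve* and 2, 53, 58, 7 and 17 in *Fezf2−ve* libraries. *Fezf2−ve* libraries 2, 3 and 5 were high, while *Fezf2−ve* libraries 1 and 4 had few reads and the normalized ranges overlapped. Its level, the mean TMM-normalized log2(CPM + 1), was 3.86 ± 0.86 in *Fezf2+ve* against 6.56 ± 2.11 in *Fezf2−ve* libraries (SD, n = 5 each). The log2 fold change was -2.76 (standard error 1.24, edgeR, unadjusted p = 0.0381, adjusted p = 0.998), with the *Fezf2+ve* library lower in 5 of 5 animals, and lay between -3.28 and -2.04 with each animal left out. *Kmt2e*, a reader of methylated histone H3 related to the trithorax proteins (chr5:23434441-23504235, plus strand), was the most-read member of this group, with 27, 61, 5, 3 and 5 reads in *Fezf2+ve* and 9, 6, 826, 9 and 10 in *Fezf2−ve* libraries. *Fezf2−ve* library 3 was far above the other 9, which overlapped between the types, and its log2 fold change of -0.14 (standard error 1.55) became 0.85 without animal 3, 0.15 without animal 4 and 0.04 without animal 5. *Srpk2*, which overlaps it on the opposite strand, had 565 of its 588 reads in the same library, and reads on the shared bases can be counted on both. Outside the naming rule and chosen after their values were seen, *Ehmt1* had 291 of 338 reads in *Fezf2+ve* library 5, *Nsd1* 137 of 263 in *Fezf2−ve* library 2 and *Suz12*, a core subunit of the Polycomb repressive complex PRC2, 50 of 68 in *Fezf2+ve* library 2. The PRC2 methyltransferases *Ezh2* and *Ezh1* had 20 and 6 reads and *Kmt2a* had 6.

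Demethylases had 18 members, all with a read and 13 tested. *Kdm2b*, which removes methyl groups from histone H3 and recruits a Polycomb complex to CG-rich DNA (chr5:122870665-122989823, minus strand), had 9, 3, 3, 2 and 13 reads in *Fezf2+ve* and 297, 2, 6, 505 and 219 in *Fezf2−ve* libraries. *Fezf2−ve* libraries 1, 4 and 5 were far above the rest, while *Fezf2−ve* libraries 2 and 3 had 2 and 6 reads, no more than the highest *Fezf2+ve* libraries. The level was 5.20 ± 0.99 in *Fezf2+ve* against 8.37 ± 3.55 in *Fezf2−ve* libraries (SD, n = 5 each). Its fitted log2 fold change came to -3.27 (standard error 1.56, edgeR, unadjusted p = 0.0488, adjusted p = 0.998), with the *Fezf2+ve* library lower in 4 of 5 animals, and lay between -4.10 and -2.37 with each animal left out. *Rnf34* overlaps it on the opposite strand and had 10 reads in all. In a different library again, the paralogue *Kdm2a* had 443 of its 470 reads in *Fezf2−ve* library 1 and 1 to 10 reads in each of the others (chosen after its values were seen). The X-linked *Kdm6a* had 63 of its 66 reads in *Fezf2−ve* library 2 and *Kdm5c* had 6 reads. On the Y chromosome *Kdm5d* had 1 read, whereas *Uty*, a *Kdm6a* relative outside the symbol rule, had 2, 16, 8, 0 and 3 reads in *Fezf2+ve* and 0, 4, 189, 17 and 30 in *Fezf2−ve* libraries.

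Acetyltransferases had 9 members, of which 8 had a read and 6 were tested. *Crebbp*, the CREB-binding coactivator that acetylates histones (chr16:4081328-4213997, minus strand), had 0, 1, 0, 0 and 0 reads in *Fezf2+ve* and 3, 0, 54, 8 and 1016 in *Fezf2−ve* libraries. Only *Fezf2−ve* libraries 3, 4 and 5 exceeded the floor of 3 reads, *Fezf2−ve* library 5 held 1016 of the 1082 reads, and *Fezf2+ve* library 2 lay above *Fezf2−ve* library 2. Pooled over libraries, the share of gene reads was 884 times higher in *Fezf2−ve* IT-PNs (95% exact binomial interval 158 to 34935), and 50.5 times (8.76 to 2027) without animal 5. The level was 0.58 ± 1.30 in *Fezf2+ve* against 6.10 ± 4.63 in *Fezf2−ve* libraries (SD, n = 5 each). The fit gave a log2 fold change of -6.55 (standard error 2.85, edgeR, unadjusted p = 0.0372, adjusted p = 0.998), with the *Fezf2+ve* library lower in 4 of 5 animals, which moved between -10.18 and -4.09 with each animal left out. The paralogue *Ep300*, chosen after its values were seen, had 13 reads in *Fezf2+ve* library 5 and 329 of its 344 reads in *Fezf2−ve* library 3. *Kat7*, *Kat6b* and *Kat2b* had 48, 36 and 35 reads and were each found in 8 libraries.

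Deacetylases had 11 members, of which 9 had a read and 6 were tested, and received 352 reads in all. *Hdac4*, a class IIa deacetylase that shuttles between cytoplasm and nucleus (chr1:91928779-92195699, minus strand), had 2, 1, 0, 0 and 0 reads in *Fezf2+ve* and 0, 2, 86, 2 and 4 in *Fezf2−ve* libraries. *Fezf2−ve* library 3 was high and the others were near or below the floor. The pooled share was 25.6 times higher in *Fezf2−ve* IT-PNs (95% exact binomial interval 8.50 to 126), while without animal 3 there were 3 against 8 reads (interval 0.542 to 13.2). The fit gave a log2 fold change of -2.70 (standard error 2.08, edgeR, unadjusted p = 0.210), which lay between -4.57 and -1.27 with each animal left out and was weakest without animal 3. *Hdac8*, an X-linked class I enzyme that deacetylates cohesin (chrX:102284639-102505359, minus strand), had 5, 3, 3, 3 and 3 reads in *Fezf2+ve* and 4, 0, 6, 0 and 1 in *Fezf2−ve* libraries. All values were low and the ranges overlapped. The log2 fold change was 1.63 (standard error 1.29, edgeR, unadjusted p = 0.220) with the *Fezf2+ve* library higher in 4 of 5 animals. It lay between 1.12 and 2.34 with each animal left out. *Hdac9*, chosen after its values were seen, had 4, 13, 14, 10 and 10 reads in *Fezf2+ve* and 8, 6, 8, 1 and 19 in *Fezf2−ve* libraries. Its highest library held 18.8% of the summed CPM over a span of 870 kb, and its log2 fold change was 0.80 (standard error 1.1, edgeR, unadjusted p = 0.478). *Hdac1* had 80 reads, *Hdac5* 31, *Hdac3* 10 and *Hdac2* 6.

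By symbol, remodellers and their partners formed the largest role group, with 39 members, 38 with a read and 29 tested, and held 54.7% of all member reads. Without the opposite-strand genes and the pseudogene this group had 36 members, against 37 readers and others. Without *Fezf2+ve* library 1 the share of the remodellers was 31.4%, below the 36.6% of the readers and others. *Ino80d*, a subunit of the INO80 complex (chr1:62958418-63114667, minus strand), had 9653, 52, 57, 11 and 28 reads in *Fezf2+ve* and 256, 21, 12, 16 and 12 in *Fezf2−ve* libraries. Library 1 was the highest within each type, and the ranges overlapped. The level was 9.55 ± 3.81 in *Fezf2+ve* against 7.36 ± 1.79 in *Fezf2−ve* libraries (SD, n = 5 each), and the log2 fold change was 2.00 (standard error 1.42, edgeR, unadjusted p = 0.177) with the *Fezf2+ve* library higher in 5 of 5 animals after TMM normalization. By library size alone it was lower in animal 4 (72.6 against 75.7 CPM). Leaving out each animal gave fold changes between 1.21 and 2.52, and without the block it was 5.53 (adjusted p = 0.154). Its antisense gene *Ino80dos* had 0 reads in *Fezf2+ve* library 1 and 16 in all. Per kb of gene span, *Ino80d* had the highest mean level of the tested members at 54.3 CPM per kb, followed by *Phf14* at 21.7 and *Arid1a* at 21.2 CPM per kb. These 3 values each rest on 1 or 2 libraries.

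*Arid1a*, the DNA-binding subunit of the canonical BAF complex (chr4:133679008-133756769, minus strand), had 14, 5, 940, 3 and 6 reads in *Fezf2+ve* and 8, 1, 1355, 7 and 43 in *Fezf2−ve* libraries. Both libraries of animal 3 were high, and outside this animal no library had more than 43 reads. The log2 fold change was -0.02 (standard error 2.40, unreliable this close to 0), and became 0.13 without animal 4 and 0.52 without animal 5. *Baz2b*, a bromodomain partner of ISWI ATPases (chr2:59899363-60209839, minus strand), had 1, 6, 0, 21 and 1 reads in *Fezf2+ve* and 1, 227, 16, 103 and 10 in *Fezf2−ve* libraries. Animals 2 and 4 were the highest within both types, and the ranges overlapped. Its log2 fold change was -3.12 (standard error 1.47, edgeR, unadjusted p = 0.0461, adjusted p = 0.998), with the *Fezf2+ve* library lower in 4 of 5 animals, and lay between -3.94 and -2.35 with each animal left out. *Chd3*, an ATPase of the NuRD complex (chr11:69343273-69369406, minus strand), was the 1 member of the 6 with a higher value in *Fezf2+ve* libraries, with 0, 3, 1, 1 and 123 reads in *Fezf2+ve* and 0, 0, 0, 0 and 5 in *Fezf2−ve* libraries. Library 5 held the most reads in both types, and no other library exceeded the floor. The log2 fold change was 4.11 (standard error 1.66, edgeR, unadjusted p = 0.0270, adjusted p = 0.998), higher in *Fezf2+ve* libraries in 4 animals and equal at 0 reads in the other. Without animal 5 it did not reach the filter and was not tested, and without each of the others the fold change lay between 4.00 and 4.40.

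Other remodellers were chosen after their values were seen. *Chd2* had 0, 1, 0, 0 and 1 reads in *Fezf2+ve* and 2, 2, 3, 1 and 8 in *Fezf2−ve* libraries, and its normalized ranges did not overlap although most values lie below the floor. *1810026B05Rik* overlaps it on the same strand and had 73 of its 92 reads in *Fezf2−ve* library 5, where *Chd2* had 8 of its 18, and 10 in *Fezf2+ve* library 2. *Smarcad1* had 679 of its 685 reads in *Fezf2−ve* library 3, *Chd9* 267 of 364 in the same library, and *Chd7* 400 of 440 in *Fezf2+ve* library 4. *Smarcc1*, a core BAF subunit, was more evenly spread, with 4, 14, 21, 1 and 23 reads in *Fezf2+ve* and 2, 1, 9, 1 and 46 in *Fezf2−ve* libraries. The BAF ATPases *Smarca2* and *Smarca4* had 60 and 34 reads, and the NuRD ATPase *Chd4* had 21.

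DNA methylation genes were hardly detected, with 75 reads over 8 members, 6 of them with a read and 4 tested. *Tet3*, which oxidizes methylcytosine (chr6:83362373-83459084, minus strand), had 2, 4, 1, 2 and 1 reads in *Fezf2+ve* and 2, 1, 2, 10 and 1 in *Fezf2−ve* libraries. *Fezf2−ve* library 4 was the highest and the types overlapped. The log2 fold change was -0.01 (standard error 3.12, unreliable this close to 0), or 0.06 without animal 3 and 0.46 without animal 4. The methyltransferases *Dnmt3a* and *Dnmt1* had 21 and 3 reads, *Tet1* 13 and *Tet2* 11.

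Readers and other members numbered 37, of which 31 had a read and 17 were tested. *Arid3b*, a DNA-binding protein with an AT-rich interaction domain (chr9:57790353-57836793, minus strand), had 1, 2, 0, 0 and 2 reads in *Fezf2+ve* and 5, 3, 154, 9 and 18 in *Fezf2−ve* libraries. Every *Fezf2−ve* library had a higher normalized value than every *Fezf2+ve* library, and *Fezf2−ve* library 3 held most of the reads. The level was 2.15 ± 1.98 in *Fezf2+ve* against 6.36 ± 1.98 in *Fezf2−ve* libraries (SD, n = 5 each), and the log2 fold change was -3.43 (standard error 1.55, edgeR, unadjusted p = 0.0386, adjusted p = 0.998), between -4.32 and -2.45 with each animal left out. *Phf14*, a PHD-finger protein that binds histones (chr6:11907809-12081205, plus strand), had 37, 21, 4340, 2 and 2 reads in *Fezf2+ve* and 28, 9, 4, 1 and 1 in *Fezf2−ve* libraries. *Fezf2+ve* library 3 stood alone, while the libraries of the other 4 animals had at most 37 reads. Its log2 fold change was 2.03 (standard error 1.48, edgeR, unadjusted p = 0.186), with the *Fezf2+ve* library higher in 5 of 5 animals, and lay between 1.03 and 2.45 with each animal left out. In animals 4 and 5 this order rests on 2 reads against 1, below the floor. *Phf20*, a reader in an acetyltransferase complex (chr2:156196466-156309952, plus strand), had 2, 4, 6, 3 and 31 reads in *Fezf2+ve* and 2, 2, 2, 1 and 2 in *Fezf2−ve* libraries. Its *Fezf2−ve* libraries were all at or below the floor and *Fezf2+ve* library 5 was the highest. The log2 fold change was 1.89 (standard error 1.09, edgeR, unadjusted p = 0.0957), again with the *Fezf2+ve* library higher in 5 of 5 animals. It lay between 1.23 and 2.19 with each animal left out and was lowest without animal 5. Both libraries of animal 1 had 2 reads, so their order comes from the scaling to depth alone. After their values were seen, *Phf21a* was noted for 844 of 878 reads in *Fezf2+ve* library 5, *Arid4b* for 569 of 643 in *Fezf2+ve* library 2 and *Phf12* for 298 of 339 in *Fezf2+ve* library 5.

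**Figure D5:**
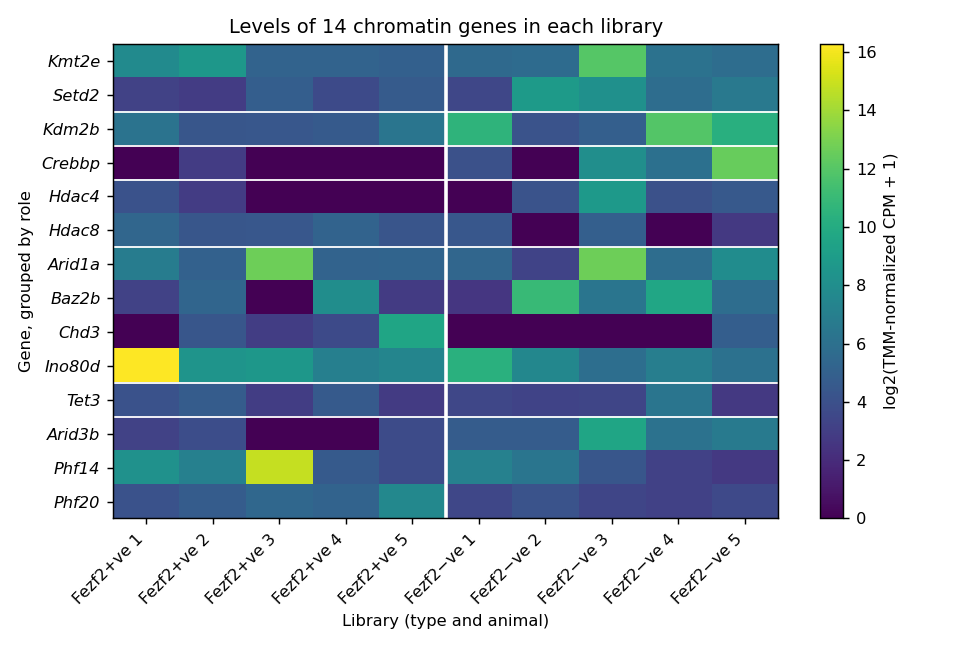
Level of the 14 named members, as TMM-normalized log2(CPM + 1) (colour scale), with a row for each gene grouped by role and a column for each of the 10 libraries. The brightest cell is *Ino80d* in *Fezf2+ve* library 1 at 16.27, the values of *Arid3b* do not overlap between the types, and those of *Ino80d*, *Phf14* and *Phf20* were higher in the *Fezf2+ve* library of each animal. For *Phf14* and *Phf20* some of these animals had reads below the floor in both libraries.

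By role group, and without *Nsdhl*, the opposite-strand genes and the pseudogene, the tested members had 6 fold changes above and 10 below 0 for methyltransferases, 3 and 10 for demethylases, 1 and 5 for acetyltransferases, 3 and 3 for deacetylases, 11 and 17 for remodellers, 1 and 3 for DNA methylation genes, and 9 and 8 for readers and others. The medians in the same order were -0.61, -0.90, -1.57, 0.36, -0.93, -0.10 and 0.10, beside -0.16 over all tested genes. Of 45 chromatin genes linked to neurodevelopmental disorders, a list from general knowledge, 44 were members (all but *Brpf1*). All 44 had a read, 36 were tested and 7 were found in all 10 libraries. Of these 36, 0 passed the adjusted threshold in edgeR and 3 had an unadjusted p under 0.05 (*Crebbp*, *Setd2* and *Chd3*), beside 3.89% of all tested genes, with 13 fold changes above and 23 below 0 and a median of -0.36. DESeq2 called 1 of them, *Crebbp*, beside 1.32% of all tested genes.

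Another 148 chromatin genes outside the symbol rule were listed by complex, of which 133 had a read and 82 were tested. With the block, 0 were called by edgeR, 4 had an unadjusted p under 0.05 (4.88%, against 3.89% of all tested genes) and DESeq2 called *Tada2a* (1.22%, against 1.32%). The count at the unadjusted threshold was 5, 2, 2, 7 and 3 when animals 1 to 5 were left out in turn. These were 6.76, 2.74, 2.82, 8.97 and 3.85% of the genes of this list then tested, beside 3.78, 3.88, 2.83, 3.80 and 3.94% of all genes then tested. Without the block, edgeR called *Mllt1*, *Prdm2*, *Stag1* and *Trrap* (4.88%, against 3.77%). *Tada2a*, an adaptor of histone acetyltransferase complexes, had 4, 244, 3, 3 and 3 reads in *Fezf2+ve* and 0, 1, 0, 2 and 0 in *Fezf2−ve* libraries. *Fezf2+ve* libraries lay above all *Fezf2−ve* libraries, with most reads in library 2, and the pooled share was 105 times higher in *Fezf2+ve* IT-PNs (95% exact binomial interval 35.5 to 512). Without animal 2 the ratio was 8.42 (1.91 to 76.8). *Ncoa3*, a coactivator that works with *Crebbp* and *Ep300*, had 1, 0, 1, 0 and 2 reads in *Fezf2+ve* and 3, 10, 95, 6 and 4 in *Fezf2−ve* libraries. Its values did not overlap between the types either, and the log2 fold change was -3.51 (standard error 1.59, edgeR, unadjusted p = 0.0386). *Mllt1*, a reader of histone acylation, had 1, 0, 7, 0 and 66 reads in *Fezf2+ve* and 0 in all *Fezf2−ve* libraries, and was at least 30.2-fold higher against a floor of 3 reads over the *Fezf2−ve* libraries. Without animal 5, whose *Fezf2+ve* library held 66 of its reads, the bound was 3.43-fold. *Sirt3*, a mitochondrial deacetylase, had 74 and 2 reads in *Fezf2+ve* libraries 1 and 2 and 0 in the other 8, and no fold is given. Tested genes numbered 15 of 26 for the Polycomb complexes, 8 of 20 for NuRD, Sin3 and CoREST, 5 of 14 for other BAF subunits, 16 of 29 for COMPASS and other methyltransferases, 13 of 21 for acetyltransferase partners and sirtuins, 3 of 9 for readers of DNA methylation and 22 of 29 for other remodellers and architectural proteins. All 4 genes with an unadjusted p under 0.05 in edgeR belonged to the acetyltransferase partners and sirtuins, where 8 fold changes lay above and 5 below 0. Nothing is read from this grouping, since the lists were chosen with earlier results of these data known. The study's text names *Tada2a*, *Ncoa3* and *Mllt1* among its genes that differed between these same libraries.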

How the data were processed

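The submitters' processing notes list bcl2fastq 1.8.4. The authors split the reads by inline barcode with sabre, trimmed them with the FASTX-Toolkit, mapped them to mm10 with TopHat2 2.1.1 and counted them on RefFlat genes and ERCC transcripts with bedtools 2.26.0 (multiCov). The deposited counts are whole reads without normalization. This counting adds a read to each gene it overlaps and its use of strand is not stated, so values of overlapping genes, antisense genes and near-identical copies are uncertain. Of the members, 37 overlap another listed gene. The authors' DESeq2 1.10.1 comparison (R 3.2.5) holds means, log2 fold changes with standard errors, a statistic, p-values and adjusted p-values, and none of these were used.

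Members were matched by symbol, and the members and lists were chosen with earlier results of these data known. The 7409 of 24453 genes that reached 10 CPM in 2 or more libraries were tested with edgeR 4.0.16 (TMM, quasi-likelihood, animal as block) in R 4.3.3, with Benjamini-Hochberg adjustment over all tested genes and a threshold of 0.1. Standard errors were calculated from the fold change and the F statistic. This ratio is unstable for fold changes near 0, so standard errors such as those of *Arid1a* and *Tet3* are unreliable. The common biological coefficient of variation was 1.19. Single values per library were compared by exact sign flips within animals. Python 3.11.15, numpy 2.4.6, pandas 2.3.3 and scipy 1.17.1 were used for the rest. The libraries of an animal are paired in the sample records. Once each gene was centred within its type, deviations across genes correlated by 0.029 on average within animals (-0.027 to 0.097, 5 pairs) and by -0.007 between animals (20 pairs).

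Members named by rule were *Crebbp*, *Kdm2b* and *Arid3b*, which the study's text names, in each direction the 5 tested members with the smallest unadjusted p and 1 sign in at least 4 of 5 animals, the most-read member of each role group, and the 3 with the highest CPM per kb. Other chromatin genes were named if the study's text names them or at an unadjusted p under 0.05. Members named beyond this rule were chosen after their values were seen. Lists of markers for excitatory neurons, layer 5, interneurons, microglia, astrocytes, oligodendrocyte precursors, endothelial cells and blood came from general knowledge, and the result of 1 further list is not reported here. Positions are those of GENCODE M21 on GRCm38 (mm10), 1-based, and promoter windows those of RefSeq. Gene reads per library ranged from 89138 to 217738. Alternatives were no block, DESeq2 1.42.0 with the block, RLE size factors, no normalization beyond library size, no filter, a filter of 10 CPM in 5 libraries, counts downsampled to 89138 reads, an unadjusted threshold, leaving out each animal, and, added after seeing the data, edgeR's legacy quasi-likelihood method. The methods were checked on simulated counts. FACS, qPCR and imaging were not analysed here.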

Additional observations from a re-analysis of the deposited data

Results flagged for a closer look

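Each value here was the highest of its group of 5 libraries by a gap of more than 0.71 of the range of that group (Dixon's 95% limit). Chance gives such a gap in about 1 in 20 groups, and 32 groups were tested. This share does not apply to *Crebbp* and *Chd3* below, where 4 of the 5 values were 0 and any read in the other library gives the largest possible gap. Nor does it hold for *Arid1a*, *Ino80d*, *Kmt2e* and *Tet3*, which were named for their reads or CPM per kb. A single high library raises these values, so no comparison with chance is drawn.

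Members held 2.56% of the gene reads in *Fezf2−ve* library 3, with the other 4 *Fezf2−ve* libraries at 0.430 to 0.922%. In the same library *Kmt2e* had a level of 11.97 on the log2 scale, whereas its other *Fezf2−ve* levels lay between 5.54 and 6.14. *Arid1a* had a level of 12.67 in *Fezf2+ve* library 3, and *Ino80d* one of 16.27 in *Fezf2+ve* library 1. *Crebbp* had a level of 2.91 in *Fezf2+ve* library 2, from 1 read, and *Chd3* one of 4.85 in *Fezf2−ve* library 5, from 5 reads, with 0 reads in the other libraries of these groups. *Tet3* had a level of 6.29 in *Fezf2−ve* library 4, from 10 reads.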

How the results depend on the processing

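With the animal block, edgeR called 0 members with RLE size factors, without size factors, without a filter, with the stricter filter, downsampled counts, the legacy method and with each animal left out, and likewise 0 of the other chromatin genes. Without the block or pairing the counts of calls were 4 members and 4 other chromatin genes (4.35 and 4.88%, against 3.77% of all tested genes). DESeq2 with the block called 2 and 1 (2.17 and 1.22%, against 1.32%). An unadjusted p under 0.05 in edgeR gave 6 and 4 (6.52 and 4.88%, against 3.89%). Without the block 21 members and 22 other chromatin genes had an unadjusted p under 0.05 (22.8 and 26.8%), with 1345 of the 7409 tested genes (18.2%). Without it, *Arid3b*, *Crebbp*, *Kdm2b* and *Phf14* had log2 fold changes of -4.65, -9.05, -4.91 and 6.89 (edgeR, adjusted p = 0.0972 for *Arid3b* and 0.0931 for the others). With DESeq2, *Crebbp* and *Kdm2b* had -5.43 and -3.33 (adjusted p = 0.0755 and 0.0971).

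The median log2 fold change of the tested members, -0.52 beside -0.16 over all tested genes, was -0.75 without a filter (132 members, all genes -0.25), -0.25 with the stricter filter (44 members, all genes -0.12) and between -0.82 and -0.30 with each animal left out. The filters keep different members. The share of gene reads on members differed by -0.469 points without the 10 most-read genes and by -0.233 points without the most-read member, and by 0.583 to 2.47 points with each animal left out. Of 153 fits of the 14 named members, 9 gave the other sign, in *Arid1a*, *Kmt2e* and *Tet3*. *Arid1a* had 0.0063 with the legacy method and -0.49 to 0.52 with each animal left out, *Kmt2e* 0.49 with downsampled counts and -1.15 to 0.85, and *Tet3* -0.42 to 0.46. The cause of these changes was not tested. In these 153 fits the other 11 kept their sign. *Chd3* was not tested without animal 5, and the fold changes of single members with other filters were not compared. Depth sets the floor of 3 reads at 13.8 to 33.7 CPM.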
